A study of Mus musculus with 51 samples.

Results

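Wild-type and Smchd1 maternal null mouse embryonic stem cells (mESCs) were compared at day 0 of differentiation, in the serum-containing DMEM and LIF medium that preceded the differentiation media. The 7 libraries labelled with this medium were taken, 4 wild-type and 3 maternal null, out of 51 samples in the series and 45 in its time course. Wild-type cells carried the intact Smchd1[fl/+] alleles, and maternal null cells were Smchd1[del/+], deleted in the oocyte with Zp3-Cre, so that they keep an intact paternal allele. All are male C57BL/6/Cast F1 cells by their labels, except that the record of maternal null replicate 3 names neither strain nor Cre. Replicates 1 to 3 of both genotypes are labelled line 1 and wild-type replicate 4 is labelled line 2. By these labels all 3 maternal null libraries come from 1 line, so a genotype difference cannot be told apart from a difference between lines. The legend of the study instead describes technical replicates of 2 lines for each genotype, derived from separate blastocysts. Which of the 2 holds was not settled. The p-values therefore measure only the spread between these libraries, which may be technical.

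SMCHD1, a chromatin protein with a hinge domain like that of cohesin and condensin, helps to hold genes silent, and the egg passes a store of it to the early embryo. LIF holds mESCs in the pluripotent state through STAT3. In serum, such cultures move between a naive state, marked by factors such as Klf4, Esrrb and Zfp42 (Rex1), and a state closer to the formative epiblast. The comparison at day 0 asks whether the genotypes already differed in pluripotency and differentiation factors when differentiation began. The deposited values cover 34 such factors as log2 RPKM, that is, reads scaled to exon length and to the library total.

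Whole reads could be recovered from the log2 RPKM values with GENCODE exon lengths, and 238 of 238 values came within 0.05 of a whole read. The totals this implies are between 5.97 and 31.3 M (mega) reads for the wild-type libraries and 12.2, 3.87 and 26.7 M for maternal null replicates 1 to 3. The markers of mESCs were present in every library. Pou5f1, Nanog, Sox2, Zfp42, Klf4 and Esrrb lay between 2.07 and 9.17 log2 RPKM, whereas Cdx2, a trophoblast and tail-end factor, lay between -2.01 and 0.58 and the mesoderm factor T (Tbra) between -0.91 and 0.92. Smchd1 is not among the 34 factors, so the genotype labels were not checked against its level here.

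Maternal null replicate 3 stood apart from the other 6 libraries. It had the lowest value of the 7 for 28 of 34 factors and lay below every wild-type library for 30 of them, against 3 for replicate 1 and 13 for replicate 2. Its reads on the 34 factors came to 874 RPM (reads per M reads of the library), where the other 6 libraries had between 3847 and 5413 RPM, although its total was the second highest of the 7. The shortfall was largest for the factors with the highest levels. For the 11 factors with a wild-type mean of at least 5 log2 RPKM it lay a median of 2.09 below the wild-type mean on the log2 scale (a difference of -2.09, from -3.98 to -1.42), and for the 10 factors between 2 and 5 the median difference was -1.33. Over those same 11 and 10 factors the mean of replicates 1 and 2 differed from wild-type by medians of -0.02 and -0.37. Day 0 differences are therefore given for all 7 libraries and again without replicate 3. As replicate 3 was set apart for its low values, leaving it out raises most differences by construction.

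**Figure D1:**
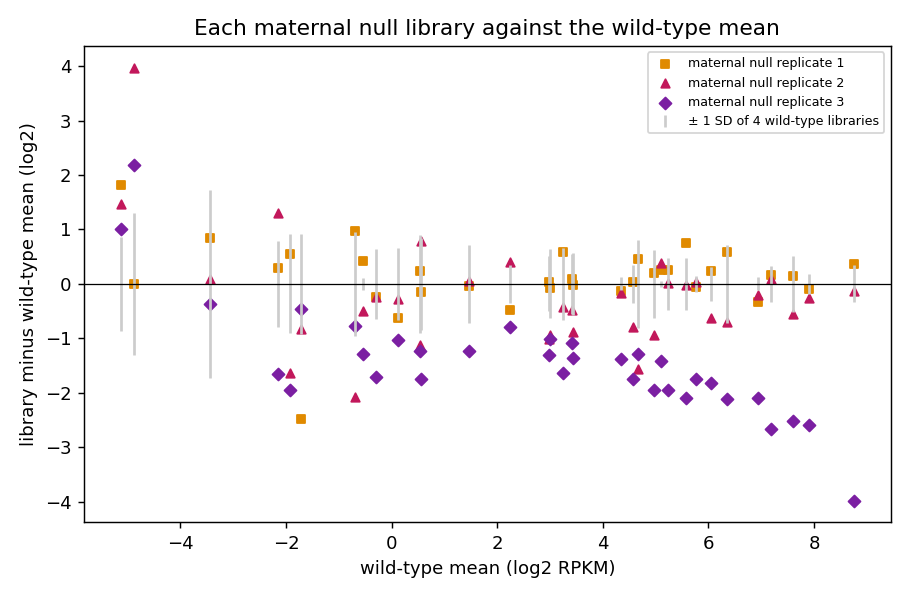
Each maternal null library minus the wild-type mean (log2, y axis) against the wild-type mean level (log2 RPKM, x axis) for the 34 factors, with grey bars for ± 1 SD of the 4 wild-type libraries. Replicates 1 and 2 scatter around 0, while replicate 3 falls further below it as the level rises, down to -3.98 at Pou5f1.

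The sample record of replicate 3 is written in another format than those of the other day 0 libraries, and so are those of 2 more libraries of the time course, wild-type day 2 replicate 3 and maternal null day 2.5 replicate 3. These 3 libraries had 617 to 886 RPM on the 34 factors, and the 41 others, leaving out maternal null day 1 replicate 4, had 1181 to 5413. Ctnnb1, which encodes beta-catenin, was measured at 4.52, 4.63 and 4.77 log2 RPKM in the 3 libraries and at 6.11 to 7.85 in the 41. Gsk3b, at 1.45 to 2.02 in the 3 and 1.76 to 3.76 in the 41, did not separate them. Neither did Pou5f1, at 4.42 to 4.88 and 3.27 to 9.35. The 41 libraries span all days of the time course, so these ranges are not matched by day. Low reads on the 34 factors and low Ctnnb1 occurred in a wild-type library as well. What part sample handling or submission had in them was not tested.

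**Figure D2:**
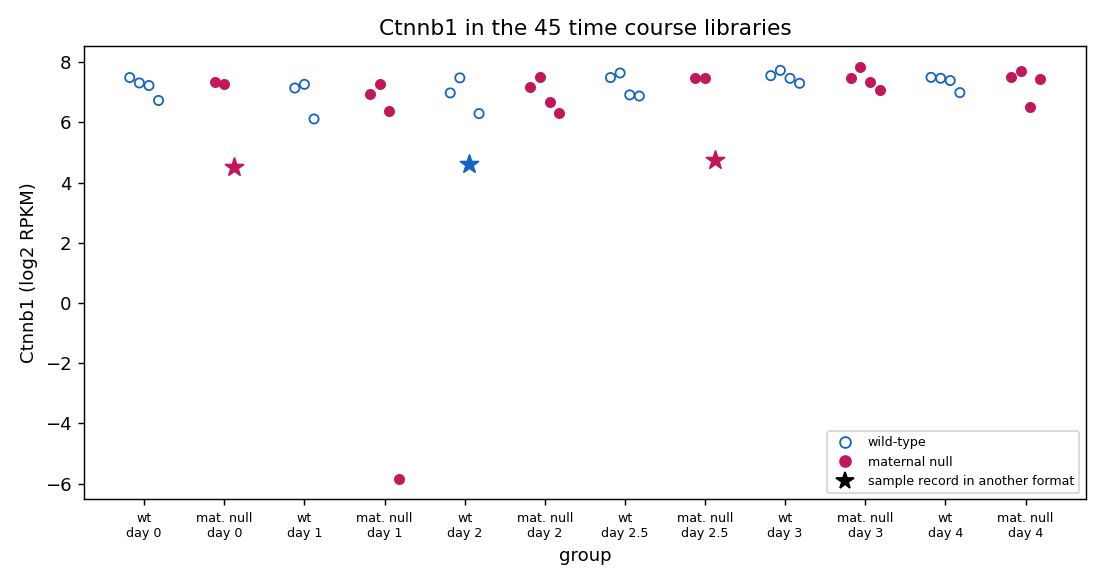
Ctnnb1 (log2 RPKM, y axis) in each of the 45 time course libraries by genotype and day (x axis); open circles are wild-type, filled circles maternal null, and stars the 3 libraries whose sample record has another format. The stars lie between 4.52 and 4.77, and the single point near -5.84 is maternal null day 1 replicate 4.

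No factor passed the test between genotypes at day 0 (0 of 34, 0%), with limma's moderated test and Benjamini-Hochberg adjustment at 0.05, and 2 of 34 (5.88%) had an unadjusted limma p under 0.05. That fit has genotype as its only term. With the replicate number as a block 1 factor passed (Dkk1), and with the block in limma's voom fit to recovered reads 4 passed (Nkx1-2, Fgf8, Wnt3a and Dkk1). Wild-type replicate 4 has no partner, so blocked differences rest on the 3 pairs alone. The pairing was accepted on the values of these same 34 factors, so the blocked calls are not independent of that choice. Within replicate numbers, 16 factors were lower in the maternal null library of all 3 pairs, 2 were higher in all 3 and 16 were mixed. On average 31 factors were lower and 3 higher in the maternal null libraries, with a median difference of -0.65 on the log2 scale. With each library centred on its own median the split was 18 lower and 16 higher, with a median of -0.03. As that median is taken over the same 34 factors, centring adds 0.63 to every difference and makes a near-even split by construction. Without replicate 3, 22 were lower and 12 higher, and the median difference was -0.16. limma gave every factor the same standard error of 0.69 in the fit to all 7 libraries, so factors with few reads and factors with many were judged by the same spread. The values of all 34 factors are drawn by library in the plot of day 0 levels.

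**Figure D3:**
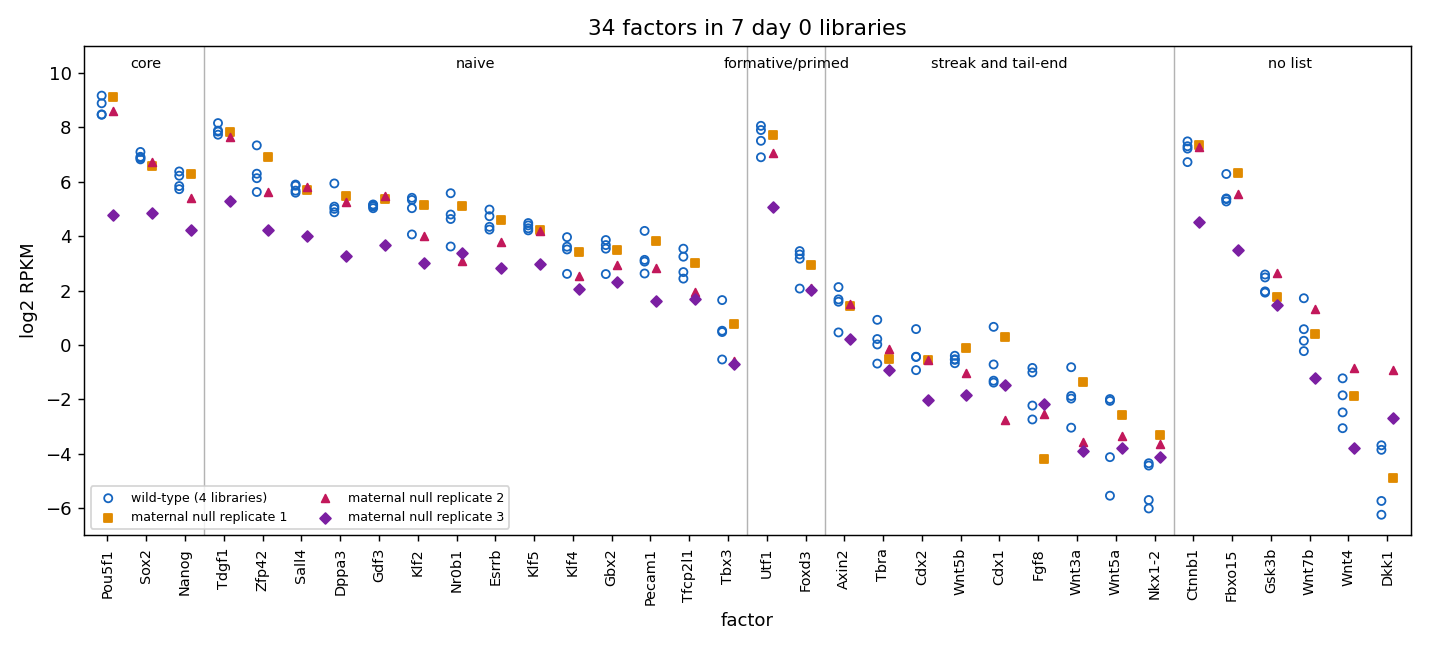
Log2 RPKM (y axis) of the 34 factors (x axis, grouped by list and ordered by wild-type mean) in the 4 wild-type libraries (open circles) and maternal null replicates 1, 2 and 3 (squares, triangles and diamonds). Squares and triangles mostly lie among the circles, and the diamonds lie lowest of the 7 for 28 factors.

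The core pluripotency factors Pou5f1, Nanog and Sox2 differed by less than the test could call. Pou5f1, which encodes OCT4 (chromosome 17, 35506018 to 35510772 in GRCm38), was measured at 9.17, 8.48, 8.47 and 8.89 log2 RPKM in wild-type replicates 1 to 4 and at 9.11, 8.62 and 4.77 in maternal null replicates 1 to 3. Replicates 1 and 2 lay within the wild-type range and replicate 3 far below it. The difference of the means was -1.25 ± 0.69 (standard error), with an adjusted p of 0.574 by limma and Benjamini-Hochberg, and it turned to 0.11 without replicate 3. Nanog, whose level varies from cell to cell in serum, was at 6.38, 5.84, 6.23 and 5.73 in the wild-type libraries and at 6.28, 5.42 and 4.22 in the maternal null libraries. Its groups overlapped, and the difference moved from -0.74 to -0.20 without replicate 3.

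Sox2, the partner of OCT4 (chromosome 3, 34650405 to 34652461), was 1 of 2 factors whose groups did not overlap (5.88% of 34, 2.94% in each direction). It was measured at 6.83, 6.88, 7.10 and 6.92 log2 RPKM in the wild-type libraries and at 6.60, 6.73 and 4.84 in the maternal null libraries. All 3 maternal null values were below the wild-type minimum, replicates 1 and 2 by a small margin. Between the group means of 6.93 ± 0.12 (SD, n = 4) and 6.05 ± 1.05 (SD, n = 3) the difference was -0.88, and limma gave an adjusted p of 0.574 after Benjamini-Hochberg adjustment. Without replicate 3 the difference was -0.27. The groups did not overlap there either, but leaving out a library cannot make separate groups overlap. With library medians subtracted they overlapped. An exact permutation test of 4 libraries against 3 cannot give a two-sided p under 0.0571.

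All 14 factors listed here as naive, Tdgf1, Sall4 and Gdf3 among them, were lower on average in the maternal null libraries. They were lower by 0.26 to 0.98 on the log2 scale (differences of -0.26 to -0.98), and 0 of 14 passed the test. Their mean was 4.46 ± 0.35 log2 RPKM (SD, n = 4) in wild-type and 3.79 ± 0.91 (SD, n = 3) in maternal null libraries. With the 0.63 of centring added the list mean difference was -0.05. The median of their differences was -0.73, beside -0.65 over all 34 factors. In replicates 1 and 2 alone 11 of 14 were lower than the wild-type mean and 3 higher, and the difference of the list means went from -0.67 to -0.20. As these are bulk samples, fewer cells of a naive type and less RNA per cell cannot be told apart. Nor can either be told apart from the low values of maternal null replicate 3 over most of the 34 factors.

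Among the Klf factors, which together sustain self-renewal, Klf2 was at 5.33, 4.07, 5.03 and 5.41 log2 RPKM in wild-type and at 5.16, 4.02 and 3.02 in maternal null libraries. Klf4 was at 3.97, 2.61, 3.51 and 3.61 in wild-type and at 3.41, 2.55 and 2.07 in maternal null libraries. For both, wild-type replicate 2 lay far below the other wild-type libraries and close to maternal null replicate 2. Klf5 varied little among the wild-type libraries, at 4.40, 4.29, 4.48 and 4.22 in wild-type and at 4.22, 4.18 and 2.96 in maternal null libraries. The differences were -0.89, -0.75 and -0.56 for Klf2, Klf4 and Klf5, and -0.37, -0.45 and -0.15 without replicate 3.

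Esrrb, an orphan nuclear receptor of the naive network, was at 4.98, 4.24, 4.74 and 4.34 log2 RPKM in wild-type and at 4.61, 3.79 and 2.82 in maternal null libraries. Zfp42 was at 7.34, 5.63, 6.13 and 6.30 in wild-type and at 6.93, 5.64 and 4.24 in maternal null libraries. Tdgf1, the NODAL co-receptor also called Cripto, had the largest downward difference of the naive list, at 7.73, 7.88, 8.16 and 7.85 against 7.82, 7.64 and 5.31. In all 3 factors the groups overlapped. Their differences of -0.84, -0.75 and -0.98 became -0.38, -0.06 and -0.18 without replicate 3, so that Zfp42 and Tdgf1 lost most of theirs. The remaining naive factors (Tfcp2l1, Tbx3, Nr0b1, Dppa3, Gbx2, Pecam1, Sall4 and Gdf3) differed by -0.80 to -0.26, and by -0.55 to 0.32 without replicate 3. Without it, Gdf3, a TGF-beta family ligand, was higher in the maternal null libraries by 0.32 and Dppa3 by 0.14.

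For naive factors the median difference between replicate numbers 1 and 2 was larger than that between genotypes within number 1 or number 2, but not within number 3. Replicate 1 exceeded replicate 2 for 12 of 14 naive factors in wild-type cells and for 12 of 14 in maternal null cells, with median differences of 0.96 and 0.84 on the log2 scale. Between genotypes within replicate number 1 the median difference over the same 14 was -0.36, within number 2 it was -0.09, and within number 3, which holds the library that stood apart, it was -1.55 with 14 of 14 lower. Nr0b1 (DAX1), a target of OCT4 and STAT3, gave the clearest case, at 5.58 and 5.12 in wild-type and maternal null replicate 1 and at 3.62 and 3.10 in replicate 2. Zfp42 and Tbx3 followed the same order in both genotypes. Over the 14 naive factors the replicate 1 minus replicate 2 differences of the genotypes had a Pearson r of 0.84, and over all 34 factors r was 0.51. These are correlations across genes within 4 libraries, and genes are not independent replicates. The numbers were themselves taken as pairs because same-numbered libraries varied together over these 34 factors. The shared pattern is therefore no separate evidence for the pairing.

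**Figure D4:**
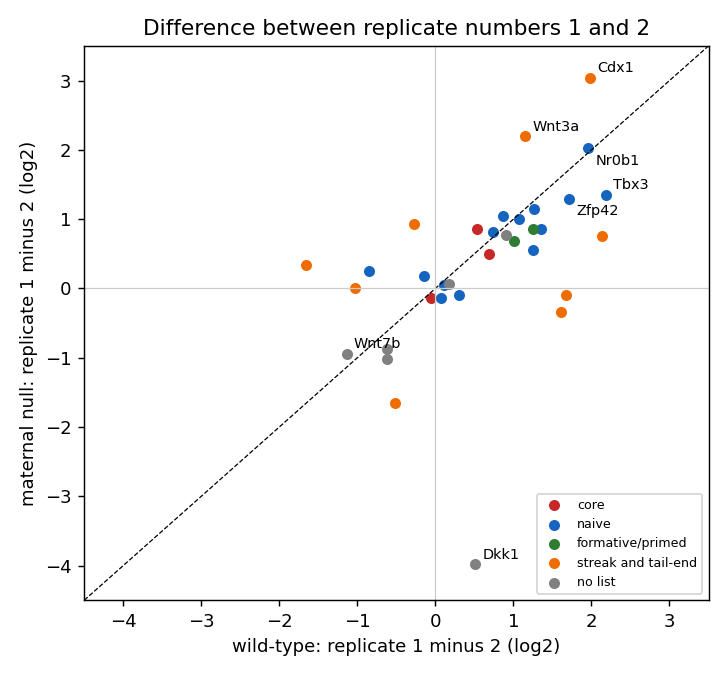
Replicate 1 minus replicate 2 (log2) in maternal null cells (y axis) against the same difference in wild-type cells (x axis), one point per factor coloured by list, with the line of equality dashed. Naive factors such as Nr0b1, Tbx3 and Zfp42 lie far to the upper right near the line, and Dkk1 lies at the bottom.

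The formative and primed list held 2 measured factors, Foxd3 and Utf1, and 0 of 2 passed the test. Foxd3, a forkhead factor needed for exit from the naive state, was at 3.33, 2.07, 3.17 and 3.45 log2 RPKM in wild-type and at 2.94, 2.08 and 2.00 in maternal null libraries. Utf1, a chromatin-bound factor of undifferentiated cells, was at 7.91, 6.90, 7.51 and 8.06 in wild-type and at 7.73, 7.05 and 5.09 in maternal null libraries. In both, replicate number 2 was low in either genotype. The differences of -0.67 and -0.97 became -0.50 and -0.21 without replicate 3.

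Of the 9 primitive streak and tail-end factors, 7 were lower and 2 higher on average in the maternal null libraries, and 0 of 9 passed the test. Their mean was -1.35 ± 0.30 log2 RPKM (SD, n = 4) in wild-type and -1.74 ± 0.50 (SD, n = 3) in maternal null libraries, and centring, which adds 0.63, put that difference at 0.23. Without replicate 3 the difference was -0.15, with 6 factors lower and 3 higher. T (Tbra), the T-box factor that defines the streak, was at 0.92, -0.69, 0.22 and 0.02 in wild-type and at -0.50, -0.16 and -0.91 in maternal null libraries. The groups overlapped, with a difference of -0.64, and of -0.45 without replicate 3. Axin2, a direct target of Wnt signalling, differed by -0.41, and by 0.01 without replicate 3. Cdx1 and Cdx2, which act upstream of Hox genes in the posterior axis, differed by -0.63 and -0.73, and by -0.55 and -0.24 without replicate 3. Without replicate 2 the difference of Cdx1 was 0.10.

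The 2 factors with an unadjusted p under 0.05 rested on few reads. Nkx1-2, a homeobox gene of the tail-end progenitor zone (chromosome 7, 132594878 to 132599637), had 1, 5, 1 and 0 reads in wild-type replicates 1 to 4 and 4, 1 and 5 reads in maternal null replicates 1 to 3. In log2 RPKM these are -6.01, -4.35, -5.70 and -4.44 against -3.32, -3.66 and -4.12, and the maternal null values all lay above the wild-type values. Wild-type replicate 4 had no read, so its value only reflects its depth and the exon length of the gene. The difference was 1.43 (1.64 without replicate 3), with an unadjusted limma p of 0.0402 and an adjusted p of 0.574 by Benjamini-Hochberg. With voom and the block Nkx1-2 passed, with a limma adjusted p of 0.0330, in a range of up to 0.891 over the alternatives. Summed over libraries there were 10 reads in 42.8 M against 7 in 73.0 M, a ratio of 2.44 with an exact 95% interval of 0.837 to 7.54 that covers counting error only.

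Dkk1, a secreted inhibitor of Wnt signalling (chromosome 19, 30545863 to 30549665), had the largest difference of the 34. It had 0, 1, 3 and 1 reads in the wild-type libraries and 1, 5 and 10 in the maternal null libraries, or -5.74, -6.25, -3.69 and -3.86 against -4.89, -0.91 and -2.70 log2 RPKM. Maternal null replicates 2 and 3 lay above all wild-type libraries and replicate 1 among them. The difference was 2.05 ± 0.69 (standard error), with an unadjusted limma p of 0.00338 and an adjusted p of 0.115 by Benjamini-Hochberg. With the replicate number as a block it was 2.39 and passed, with an adjusted p of 0.0113 in limma, the only call in that fit (1 of 34, 2.94%). Leaving out maternal null replicate 1 gave 3.08 and a call, with a limma adjusted p of 0.000946, whereas leaving out replicate 2 gave 1.09 with 0.580 and leaving out replicate 3 gave 1.98 with 0.891. The blocked call was lost without replicate 3, where the difference was 3.09 and the limma adjusted p 0.168, and with centring, where they were 2.96 and 0.313. On the log2(RPKM + 0.1) and log2(RPKM + 1) scales the difference was 0.97 and 0.23. Over the 18 alternatives that tested Dkk1 its adjusted p in limma ranged from 4.7e-05 to 0.891. Summed reads were 16 against 5, a ratio of 5.46 with an exact 95% interval of 1.91 to 19.1. That interval covers counting error only and leaves out the spread between libraries. PCR copies were not separated from independent molecules. An interval clear of a ratio of 1 was not special to Dkk1. Among the other scarce factors for which it was computed, it lay below 1 for T, Wnt3a, Wnt4, Wnt5b and Cdx2. For Cdx2 it was 0.280 to 0.576. The intervals of Nkx1-2, Fgf8, Wnt5a and Cdx1 covered 1.

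The Wnt and FGF ligands were also scarce. Fgf8, the FGF of the streak, had 4, 9, 12 and 4 reads in wild-type and 0, 0 and 8 in maternal null libraries, with a difference of -1.26, and of -1.66 without replicate 3. On the log2(RPKM + 0.1) and log2(RPKM + 1) scales it was -0.81 and -0.23. Wnt3a had 31, 22, 12 and 2 reads in wild-type and 13, 0 and 5 in maternal null libraries, with a difference of -1.02, and of -0.55 without replicate 3. Both passed with voom on recovered reads and the replicate block, each with a Benjamini-Hochberg adjusted p of 0.0273 in limma, and over the alternatives their adjusted p ranged up to 0.991. Wnt5a, a ligand of the non-canonical pathway, had 39, 14, 30 and 1 reads against 16, 3 and 15, and was 0.19 higher on average in maternal null libraries (0.47 without replicate 3), a direction that turned with log2(RPKM + 1) and with the block. As log2 RPKM, Fgf8 was at -2.74, -2.23, -0.85 and -1.01 against -4.20, -2.54 and -2.17, and Wnt3a at -0.82, -1.97, -1.88 and -3.04 against -1.38, -3.57 and -3.88. Wnt5a was at -1.99, -4.13, -2.06 and -5.55 against -2.58, -3.34 and -3.80. In all 3 ligands the groups overlapped, and the 2 maternal null libraries without an Fgf8 read carry values set by depth.

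**Figure D5:**
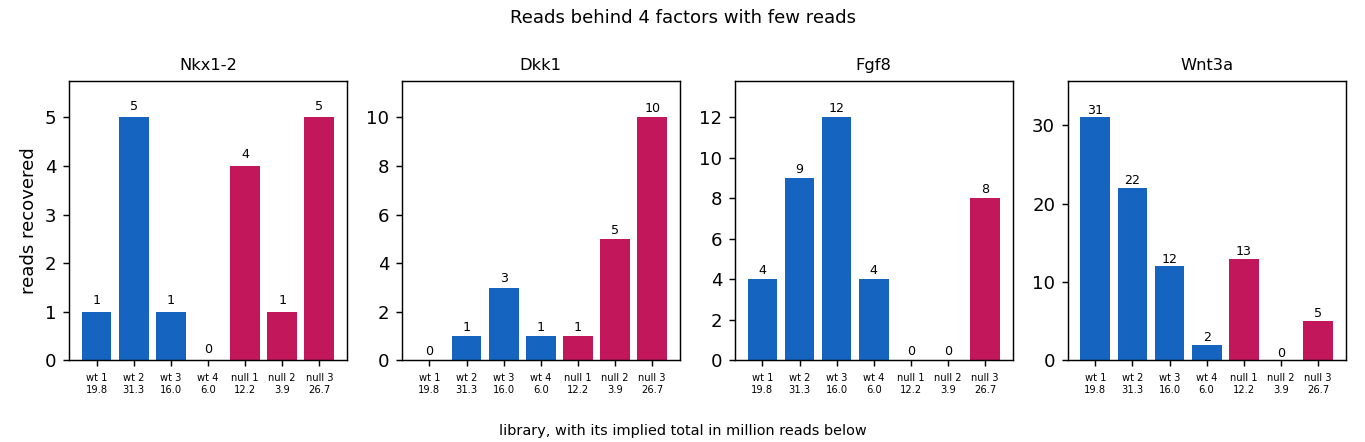
Reads recovered (y axis, from 0) for Nkx1-2, Dkk1, Fgf8 and Wnt3a in wild-type replicates 1 to 4 (blue) and maternal null replicates 1 to 3 (red), with each library's implied read total under its name. Nkx1-2 and Dkk1 never exceed 5 and 10 reads, and bars of different libraries stand on totals from 3.87 to 31.3 M reads.

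Among the 6 factors in no list, Ctnnb1 was at 7.49, 7.31, 7.22 and 6.73 log2 RPKM in wild-type and at 7.35, 7.28 and 4.52 in maternal null libraries. Replicates 1 and 2 lay within the wild-type range, and the difference of -0.81 became 0.12 without replicate 3. Gsk3b, the kinase that marks beta-catenin for degradation, differed by -0.29, Fbxo15, a target of OCT4 and SOX2, by -0.45, and the ligands Wnt4 and Wnt7b by -0.02 and -0.38. Without replicate 3 the differences of Gsk3b, Fbxo15, Wnt4 and Wnt7b were -0.04, 0.37, 0.79 and 0.31, so that 3 of the 4 turned sign. None of the 6 but Dkk1 had an unadjusted p under 0.05.

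The day 0 genotype difference was then set against those at days 1 and 2 with an interaction contrast in 1 limma fit over all 12 groups. By the methods of the study, cells of days 1 and 2 were in N2B27 medium with basic FGF. Medium therefore changes along with time in these contrasts. The later groups in the fit were given a Wnt activator and then GDF11 as well. For either day 0 of 34 factors (0%) passed the Benjamini-Hochberg threshold, and 0 of 34 had an unadjusted p under 0.05. The median standard error of these contrasts was 1.20 for day 1 and 1.16 for day 2 on the log2 scale. Contrasts well above these were not called either, such as 3.225 ± 1.973 (standard error) for Dkk1 against day 2. In maternal null day 1 replicate 4, all 17 measured factors on chromosomes 9 to X were at no-read values, against 1 of 17 on chromosomes 1 to 8. That library bears on the day 1 values, and on the spread used for both days, as the fit has 1 residual variance per factor. The genotype difference of Pou5f1 was -1.25 at day 0, -2.90 at day 1 and 0.62 at day 2 with all libraries. Leaving out that library and the 3 whose records have another format, it was 0.45 at day 1 and -0.22 at day 2, beside 0.11 at day 0. For Ctnnb1 the values were -0.81, -3.15 and 0.56, and without the 4 libraries 0.12, 0.02 and -0.01. Without the 4 libraries 0 of 34 factors passed for either day, and limma's smallest Benjamini-Hochberg adjusted p was 0.977 for day 1 and 0.979 for day 2.

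Hox genes were at or near no-read values at day 0. Of 273 values of the 39 genes, 144 were at the value of no read. The number of genes without a read was 11, 12, 19 and 28 in wild-type replicates 1 to 4 and 19, 34 and 21 in maternal null replicates 1 to 3. The most genes without a read were found in the libraries with the lowest totals, wild-type replicate 4 and maternal null replicate 2. Hoxc5, Hoxa6, Hoxc6 and Hoxa9 had no read in any library. Hoxd13 had reads in all 7 and was the only one above 1 RPKM, with 72, 104, 45 and 15 reads in wild-type and 33, 23 and 84 in maternal null libraries. Genes absent from a library's reads were not detectable at its depth, and Hox levels were not compared between genotypes.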

How the data were processed

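RNA was sequenced from mESCs, and the authors mapped reads to GRCm38.p6 with HISAT2 2.0.5 after Trim Galore 0.4.4, as the submitters' processing notes list. The deposited log2 RPKM values, 1 table for 34 factors and 1 for 39 Hox genes, were made by the authors with SeqMonk, scaled to exon length and library total, with 0.9 reads standing in for none. The raw count table was not used here. Samples were grouped by their labels. Members and gene lists were chosen with earlier results of these data known. Maternal null minus wild-type was tested with limma 3.58.1 in R 4.3.3, with Benjamini-Hochberg adjustment over 34 factors at 0.05 and genotype as the only term. Library totals were implied by no-read Hox genes, and reads by exon lengths, with Python 3.11.15. No 2 libraries were identical, and pairwise r across factors was 0.925 to 0.984. Deviations from the group means of same-numbered libraries correlated at 0.67, 0.33 and 0.52 for numbers 1 to 3, all above 0.1. Maternal null replicates 2 and 3 also exceeded 0.1 with wild-type replicate 4, at 0.21 and 0.23. The other differently numbered pairs of the 2 genotypes did not. The numbers were taken as pairs, on the data alone. Values in every library are given for factors with an unadjusted p under 0.05 or groups that do not overlap, for the 5 largest differences in each direction (only 3 were upward), and for Pou5f1, Nanog, Sox2, Klf2, Klf4, Klf5, Esrrb, Zfp42, Foxd3 and T. The alternatives were pseudocounts of 1 and 0.1, a mean of at least 1 RPKM, the block, 1 fit over 12 groups, centring, a variance trend, and each library left out. Added after the data were seen were voom on recovered reads, combinations with the block or centring, and omission of libraries that stood apart. The fitting code was checked on simulated data with known differences, capped spreads and no library that stood apart. That check does not show how the test performs on these libraries.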

Additional observations from a re-analysis of the deposited data

Results flagged for a closer look

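Fbxo15 in wild-type replicate 1, at 6.29 log2 RPKM, lay far from the other 3 wild-type libraries, which were between 5.28 and 5.39. Maternal null replicate 1 was at 6.34. Chance alone flags about 1 in 20 groups, and 38 groups of 4 wild-type libraries (34 factors and 4 list means) were examined, of which 1 was flagged. Groups of 3 were not examined in this way.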

How the results depend on the processing

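The scarce factors and most Hox genes had few reads or none. The median day 0 difference moved from -0.65 to -0.16 without maternal null replicate 3. That library was lowest of the 7 for 28 of 34 factors, so an upward move follows by construction. No factor passed in the main test, but 1 passed with the replicate block, 1 without maternal null replicate 1 and 4 (Nkx1-2, Fgf8, Wnt3a and Dkk1) with voom on recovered reads and the block. The other alternatives called 0, so that leaving out 1 library gave 0 to 1 calls, and the replicate block changed no other call. In the interactions with days 1 and 2 every alternative, block and omissions included, called 0 factors. Groups not overlapping numbered 2 of 34 (5.88%), 1 of 24 with at least 1 RPKM (4.17%) and 1 of 34 after centring (2.94%). With 1 library left out they numbered 3 (8.82%) to 15 (44.1%), with 7 (20.6%) without wild-type replicate 2 and 15 without maternal null replicate 1. Leaving out a library can only keep or raise this count.

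The streak list difference moved to 0.23 after centring. Leaving out 1 library gave -1.48 to -0.12 for the core, -1.10 to -0.20 for the naive, -1.25 to -0.35 for the formative and -0.65 to -0.15 for the streak list.

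Centring, which adds the same 0.63 to every factor, turned Klf5 to 0.064, Sall4 to 0.032, Gdf3 to 0.36, Dppa3 to 0.070, Fbxo15 to 0.18, Gbx2 to 0.13, Pecam1 to 0.13, Wnt4 to 0.60, Wnt5b to 0.17, Wnt7b to 0.25, Cdx1 to 0.00057, Axin2 to 0.22 and Gsk3b to 0.34. Wnt4 and Wnt5a turned to 0.045 and -0.033 with log2(RPKM + 1) and to 0.063 and -0.064 with log2(RPKM + 0.1). Wnt5a turned to -0.51 with the replicate block, -0.045 with voom and -0.41 with voom and the block. The block without maternal null replicate 3 turned Pou5f1 to 0.041, Gdf3 to 0.29, Fbxo15 to 0.11, Wnt4 to 0.18 and Axin2 to 0.18.

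With 1 library left out the sign turned for Axin2 (-0.74 to 0.0076), Cdx1 (-1.42 to 0.10), Ctnnb1 (-1.29 to 0.12), Dppa3 (-0.97 to 0.14), Fbxo15 (-1.05 to 0.37), Gdf3 (-0.58 to 0.32), Pecam1 (-1.03 to 0.074), Pou5f1 (-2.06 to 0.11), Wnt4 (-0.68 to 0.79), Wnt5a (-0.51 to 0.67) and Wnt7b (-0.96 to 0.31). The cause of these changes was not tested.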
